A study of Mus musculus with 6 samples.

Results

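Aqp5, Hopx, Cav2 and Cav1 are genes used to recognise type 1 alveolar cells, the flat epithelial cells that line most of the gas exchange surface of the lung. They were found in the deposited table by symbol, ignoring case, and account for 4 of its 10191 genes. All 4 passed the filter on low values. In tumours of the SD group Aqp5 was 2.47-fold lower than in Ctrl, Hopx was 1.82-fold higher, Cav2 was 1.17-fold higher and Cav1, in the values as deposited, was 2.24-fold higher.

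The samples were lung tumours of mice, 3 libraries from the Ctrl group and 3 from the SD group. Mice of both groups received a virus injection, after which the Ctrl mice spent 20 hours of each day in home cages and the SD mice the same hours in SD cages, for 7 weeks, with lights on from hour 8 to hour 20. The labels leave the letters SD unexplained; sleep deficiency is a term of the series title. The virus, the cells it reached, and the age, sex and strain of the mice are not given in the sources used here, nor is the hour at which tissue was taken. Library totals recovered from the values were 7021019 to 7417095 reads in Ctrl and 6511192 to 6968966 in SD. Levels are in CPM (counts per library, brought to the same library total by the authors) and are given as mean ± SD over 3 libraries per group.

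Type 1 cells are large, thin and in close contact with capillaries, and type 2 cells, which make surfactant, serve as their progenitors during repair. Aqp5 encodes aquaporin 5, a water channel of the apical membrane of type 1 cells that is also found in glands and airway secretory cells. Hopx encodes a small homeodomain protein that does not bind DNA itself and marks type 1 cells and their precursors in the mouse lung. Cav1 and Cav2 encode caveolin 1 and caveolin 2, proteins that form a complex in the membrane pits called caveolae. Caveolae are abundant in type 1 cells and also in endothelial cells, smooth muscle and fibroblasts, so neither caveolin gene is specific to 1 cell type. In bulk tissue, fewer cells of a type and less RNA per cell cannot be told apart.

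On mm10, Aqp5 (ENSMUSG00000044217) lies on the forward strand of chromosome 15 at 99590782 to 99594829 and Hopx (ENSMUSG00000059325) on the reverse strand of chromosome 5 at 77086988 to 77115121. Cav2 (ENSMUSG00000000058) lies on the forward strand of chromosome 6 at 17281185 to 17289115. Cav1 (ENSMUSG00000007655) follows it in the same orientation at 17306335 to 17341452, with 17.2 kb between the genes. Hopx overlaps the antisense gene Hopxos, and both caveolin genes overlap the antisense gene Gm15581. No strand setting is stated, so reads from these overlaps cannot be told apart.

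Because the series title names circadian disruption, the 300 bases around each RefSeq gene start (GRCm38.p6, 250 before and 50 after) were searched on both strands for the E-box CACGTG, the palindrome bound by CLOCK and BMAL1. The ROR element AGGTCA, the D-box core TTATGNAA, TEAD GGAATG, the NKX2 core CACTTG, the TATA motif TATAAA and the GC box GGGCGG were searched in the same way. All 4 genes matched, with 6 windows among them, since Hopx and Cav1 have 2 starts each. The E-box stood in the Aqp5 window, its first base 87 bases before the start, and in the inner Hopx window, 86 bases before the start. It stood in neither Cav1 window nor the Cav2 window, nor in the outer Hopx window. Of 32851 windows of all genes, 7.15% held it. The stretches shown are those with the E-box, for the gene that fell and for the gene that rose, and the 250 bases before the caveolin starts, which lack it. Capitals mark matches to the motifs searched.
Aqp5, chr15:99590929-99590958, forward strand: tgccgcgtgggtCACGTGgcccGGGCGGgt
Hopx, chr5:77095268-77095517, reverse strand: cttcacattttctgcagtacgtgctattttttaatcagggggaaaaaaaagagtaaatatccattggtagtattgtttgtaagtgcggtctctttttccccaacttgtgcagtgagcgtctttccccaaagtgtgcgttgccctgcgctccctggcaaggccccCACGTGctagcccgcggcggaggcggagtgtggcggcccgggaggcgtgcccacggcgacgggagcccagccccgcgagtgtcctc
Cav2, chr6:17280935-17281184, forward strand: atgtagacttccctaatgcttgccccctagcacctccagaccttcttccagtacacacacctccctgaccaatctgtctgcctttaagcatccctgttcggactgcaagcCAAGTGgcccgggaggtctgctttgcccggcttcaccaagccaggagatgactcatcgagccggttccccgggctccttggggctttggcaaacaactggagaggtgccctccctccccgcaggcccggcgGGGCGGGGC
Cav1, chr6:17306085-17306334, forward strand: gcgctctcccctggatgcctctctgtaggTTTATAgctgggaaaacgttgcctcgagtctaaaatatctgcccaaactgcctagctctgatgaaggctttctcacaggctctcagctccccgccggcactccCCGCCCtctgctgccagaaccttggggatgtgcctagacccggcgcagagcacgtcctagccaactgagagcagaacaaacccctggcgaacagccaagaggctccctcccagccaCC

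The GC box was found in the windows of Aqp5, Cav2 and Cav1 and in 35.7% of all windows. The NKX2 core was found in Cav2 and in the inner Hopx window, and in 13.6% of all windows. TATAAA stood on the opposite strand of the outer Cav1 window, 221 bases before its start, and in 13.6% of all windows. The ROR element, the D-box core and the TEAD motif were in none of the 6 windows, and 16.3%, 3.38% and 14.7% of all windows held them. The 250 bases before the start were 78.4% G or C in Aqp5, 62.0% in Cav2, 59.6% in the outer Cav1 window and 57.6% in the inner Hopx window. In the GENCODE annotation of this build the Aqp5 gene begins upstream of the RefSeq start, so its E-box lies within an annotated exon. A match is a run of letters, and binding was not measured.

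The water channel gene Aqp5 was lower in SD. Its levels were 362, 358 and 374 CPM in the Ctrl libraries and 161, 137 and 144 CPM in the SD libraries. Every SD library lay below every Ctrl library, and 197 CPM separated the groups, against a spread of at most 12.3 CPM (SD) within a group. The mean went from 364 ± 8.50 to 147 ± 12.3 CPM, a log2 difference of -1.30 ± 0.06 (SE; limma adjusted p = 4.5e-21). Across all 10004 genes tested, limma called 56.6% changed at an adjusted p under 0.05, 28.1% higher and 28.5% lower in SD, so a call alone is common in this comparison. A larger fall than that of Aqp5 was fitted for 326 genes, 3.26% of those tested.

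Hopx was higher in SD. It stood at 363, 378 and 365 CPM in Ctrl and at 676, 694 and 648 CPM in SD. The groups were again far apart, the lowest SD library being 269 CPM above the highest Ctrl library. The mean rose from 369 ± 8.46 to 673 ± 23.3 CPM, a log2 difference of 0.87 ± 0.04 (SE; limma adjusted p = 4.5e-19). A larger rise was fitted for 9.84% of the tested genes. Aqp5 and Hopx thus moved in opposite directions in the same libraries, as the plot of the members by library shows.

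Cav2 differed least. Its Ctrl libraries were at 45.4, 53.7 and 50.6 CPM and its SD libraries at 60.8, 58.3 and 56.6 CPM. The groups did not overlap, but the lowest SD library was only 2.98 CPM above the highest Ctrl library, less than the Ctrl SD of 4.17 CPM. The mean rose from 49.9 ± 4.17 to 58.6 ± 2.11 CPM, a log2 difference of 0.23 ± 0.09 (SE; limma adjusted p = 0.035), and 33.4% of the tested genes had a larger rise. The call was lost with DESeq2 (adjusted p = 0.058) and when Ctrl replicate 1 (adjusted p = 0.19), Ctrl replicate 3 (0.060), SD replicate 1 (0.10) or SD replicate 2 (0.061) was left out of the limma fit. Over all alternatives its adjusted p ran from 0.021 to 0.19, and its direction was upward in each.

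Cav1 needs its place in the table stated with its values. It is the entry numbered 30 among the 60 that stand ahead of Aaas, where a largely alphabetical order begins, and the other 3 members stand after that point. Its Ctrl values of 326, 360 and 343 CPM are whole reads, 2364, 2673 and 2408. The SD values of 769, 786 and 754 CPM come to 5006.3, 5474.3 and 5045.3 reads, and none of the 3 is whole at a tolerance of 0.01 read. Within that tolerance each is 1.3 times a whole number of reads, 3851, 4211 and 3881. Of the 50 genes in the table with values that are not whole reads, all of them among those 60, 46 have SD values that are whole at 1 decimal of a read, and in 43 the 3 SD values share such a factor between 1.1 and 4.9, a count made after the values were seen. How these values came about was not tested.

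With the values as deposited, Cav1 was higher in every SD library, the mean going from 343 ± 17.1 to 769 ± 15.8 CPM, a log2 difference of 1.16 ± 0.05 (SE; limma adjusted p = 6.7e-23). A larger rise was fitted for 5.58% of the tested genes. Ratios of SD to Ctrl means among the 60 entries ran from 2.01 to 4.81 with a median of 2.17, and Cav1 at 2.24 ranked 24 from the highest. The median ratio in the remainder of the table was 0.994. The whole numbers behind the factor of 1.3 would be 591, 604 and 580 CPM, all above the highest Ctrl value of 360 CPM, and their mean is 1.72 times the Ctrl mean. The direction of Cav1 is the same on either reading, while its size is not settled by the table.

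**Figure D1:**
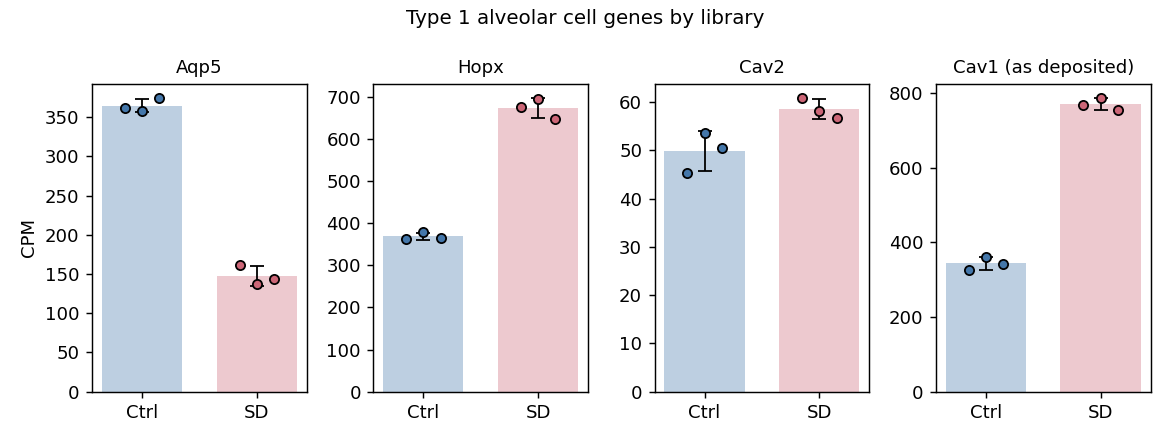
CPM of Aqp5, Hopx, Cav2 and Cav1 in each library (points), with bars for group means and error bars for the SD over 3 libraries, each panel on its own axis from 0. Aqp5 is lower in all 3 SD libraries, Hopx and Cav1 are higher in all 3, and the Cav2 groups come within 2.98 CPM of each other. The SD values of Cav1 are as deposited and are not whole reads.

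All SD libraries lay above all Ctrl libraries for Hopx, Cav2 and Cav1, which was so for 30.0% of all tested genes, and below them for Aqp5, which was so for 30.4%. Within groups the members were steady between libraries. The coefficient of variation was 2.33% in Ctrl and 8.31% in SD for Aqp5, 2.30% and 3.46% for Hopx, 8.36% and 3.598% for Cav2, and 4.97% and 2.05% for Cav1.

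Compared per length, the order of the 4 genes differed between the groups. On the scale of CPM per kb of annotated exon, the Ctrl levels were 243 ± 5.58 for Hopx, 140 ± 3.27 for Aqp5, 99.7 ± 4.95 for Cav1 and 14.96 ± 1.25 for Cav2. In SD they were 444 ± 15.3 for Hopx, 223 ± 4.58 for Cav1 as deposited, 56.8 ± 4.72 for Aqp5 and 17.6 ± 0.632 for Cav2. No neighbours in either order overlapped in their libraries. Hopx was first and Cav2 last in both groups, and Aqp5 and Cav1 changed places. Exon lengths are the union over all annotated transcripts (1516 bases for Hopx, 2599 for Aqp5, 3444 for Cav1 and 3335 for Cav2), so a gene transcribed mainly in a short form is understated.

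**Figure D2:**
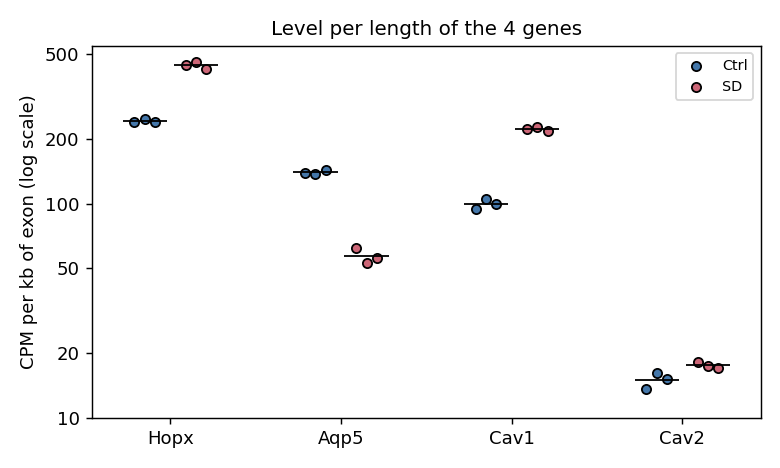
CPM per kb of annotated exon, on a log axis, for the 4 genes in each Ctrl and SD library (points), with lines at the group means. Hopx is highest and Cav2 lowest in both groups, while Aqp5 goes from 140 to 56.8 and Cav1 from 99.7 to 223.

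Ratios of members within a library do not depend on the scaling of libraries. The ratio of Hopx to Aqp5 was 1.003, 1.06 and 0.975 in Ctrl and 4.20, 5.05 and 4.50 in SD. The ratio was near 1 in every Ctrl library and above 4 in every SD library, a 4.52-fold change. The ratio of Cav1 to Cav2 was 7.19, 6.72 and 6.78 in Ctrl and 12.6, 13.5 and 13.3 in SD as deposited, and it would be 9.72, 10.4 and 10.2 in SD with the factor of 1.3 taken out. The ratio of Hopx to Cav1 was 1.11, 1.05 and 1.06 in Ctrl and 0.879, 0.883 and 0.859 in SD as deposited. That direction depends on the factor, since without it the SD ratios would be 1.14, 1.15 and 1.12. All 6 pairs of members separated the groups completely, and each gave a two-sided exact permutation p of 0.1, the smallest that 3 against 3 libraries allow, which stays 0.1 when adjusted over the 6 pairs. The pairs therefore cannot pass 0.05 in this design.

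The other genes of the type 1 alveolar list also moved both ways. Of 33 listed genes 28 were tested, the members included, of which 10 rose, 13 fell and 5 did not pass. Among all tested genes 28.1% were higher and 28.5% lower in SD. The median log2 difference was -0.13, against -0.01 over all tested genes. With Cav1 as deposited, the summed level was nevertheless higher in SD, at 5199 to 5299 CPM in Ctrl and 6891 to 6943 CPM in SD. Without Vegfa, the largest member, the sum was 4312 to 4419 CPM in Ctrl and 4676 to 4766 CPM in SD. That sum still holds Cav1 as deposited, whose mean went from 343 to 769 CPM, a rise large enough to cover the difference. No rise of the list apart from Vegfa and Cav1 is therefore read from these sums. The list was drawn up with earlier results of these data known. The defining marker Ager, the receptor RAGE of type 1 cells, fell from 410 ± 15.01 to 325 ± 13.6 CPM (limma adjusted p = 3.3e-07), a smaller change than that of Aqp5. Rtkn2, a gene enriched in type 1 cells, rose from 9.60 ± 1.49 to 17.5 ± 1.83 CPM (adjusted p = 2.1e-04). Podoplanin (Pdpn), Clic3, Tspan8, Cyp2b10 and Gramd2a of this list were not analysed here. Thus the markers in the table do not shift together in 1 direction, and the name type 1 stands here for the genes, not for a measured number of cells.

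The genes that fell include members of junctions and basement membrane. Cldn18, a tight junction claudin of alveolar epithelium, went from 288 ± 14.8 to 65.7 ± 11.7 CPM. Clic5, a chloride channel family protein, went from 126 ± 3.50 to 51.4 ± 3.404 CPM. Lamb3 and Lama3, laminin chains, went from 29.7 ± 1.48 to 9.89 ± 1.15 and from 6.87 ± 1.05 to 2.83 ± 0.501 CPM. Col4a3, a basement membrane collagen chain, fell 2.19-fold while its partner Col4a4 stood at 33.3 ± 1.89 and 35.8 ± 1.63 CPM and did not pass. Krt7, a keratin of simple epithelia, and Scnn1g, a subunit of the epithelial sodium channel, fell as well.

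Among those that rose, Vegfa, the endothelial growth factor that type 1 cells supply to capillaries, went from 893 ± 16.6 to 2189 ± 22.1 CPM (limma adjusted p = 9.0e-28), the largest rise of the list. Pxdc1 went from 19.5 ± 0.713 to 38.1 ± 5.31 CPM. Spock2, a matrix proteoglycan, went from 172 ± 3.33 to 273 ± 8.45 CPM and Cryab, a small heat shock protein, from 741 ± 26.5 to 1110 ± 22.04 CPM. Akap5, a kinase anchoring protein, and Emp2, a membrane protein of type 1 cells, rose 1.33-fold and 1.24-fold. Agrn, Igfbp2, Sema3a, Sema3e and Col4a4 did not pass. Vegfa and Cryab are expressed in many other cell types.

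**Figure D3:**
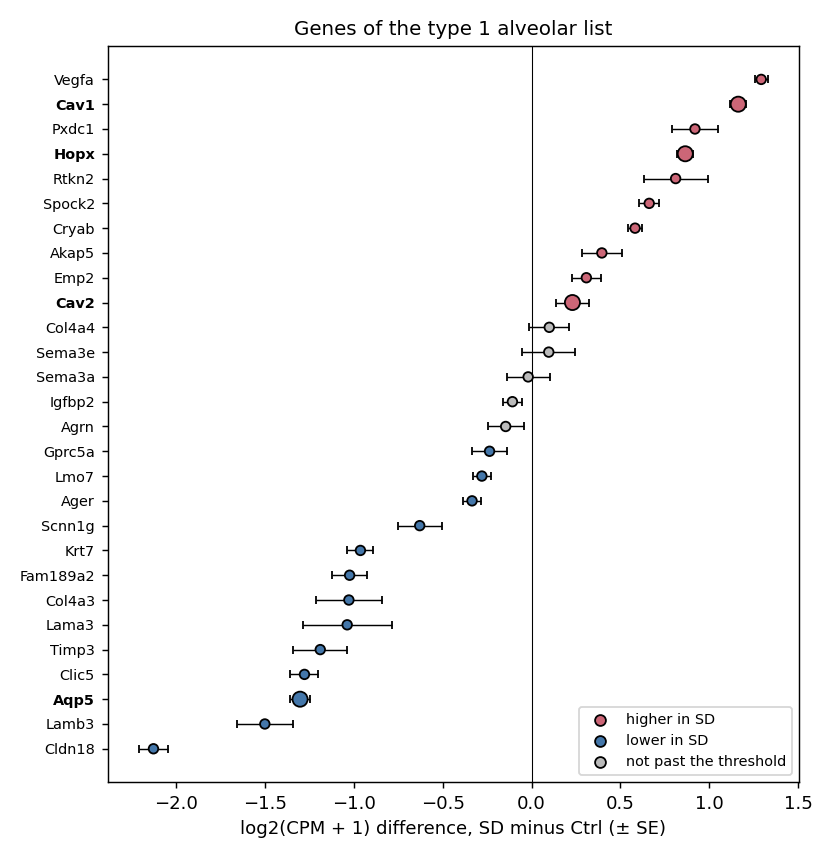
Fitted log2(CPM + 1) difference, SD minus Ctrl, with its standard error, for the 28 tested genes of the type 1 alveolar list (larger points and bold names, the 4 members). The genes spread from Cldn18 at -2.13 to Vegfa at 1.29, with Aqp5 among the lower and Cav1 and Hopx among the higher.

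Caveola components were called in both directions, as genes at large were. Of 11 tested genes of the list, 4 rose, Cav1 and Cav2 among them, 4 fell and 3 did not pass, with a median log2 difference of -0.16. Of all tested genes 28.1% were higher and 28.5% lower, so nothing particular to caveolae is read from these counts. Ehd4, an ATPase of the EHD family, went from 268 ± 17.7 to 390 ± 14.0 CPM and Flot1, a flotillin of membrane microdomains, from 245 ± 17.0 to 317 ± 8.75 CPM. Ehd2, the family member at the neck of caveolae, went from 95.0 ± 4.67 to 56.2 ± 3.08 CPM, and Pacsin2, a membrane-bending protein of caveolae, from 108 ± 4.77 to 49.7 ± 3.57 CPM (limma adjusted p = 1.9e-14). Pacsin3 and Dnm2 fell too. Cav3, the muscle caveolin, stood at 2.03 ± 0.682 and 1.04 ± 0.0355 CPM, and with Flot2 and Ehd1 did not pass. The cavins, coat proteins that caveolae need, were not analysed here.

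The genes on either side of the caveolins moved in the opposite direction. Of all tested genes 28.5% were called lower, and 30.4% had all SD libraries below all Ctrl libraries. Nothing particular to the locus is therefore read from these neighbours. Tes, a focal adhesion protein gene 175 kb before Cav2, went from 28.1 ± 3.04 to 22.1 ± 2.22 CPM (limma adjusted p = 0.035). Met, the gene of the hepatocyte growth factor receptor 122 kb after Cav1, was at 46.9, 51.1 and 48.9 CPM in Ctrl and 13.5, 13.5 and 15.4 CPM in SD, a 3.46-fold fall with no overlap. The nearest protein coding neighbours of Aqp5 are Aqp2 and Aqp6 and those of Hopx are Thegl and Spink2, none of which was analysed here.

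**Figure D4:**
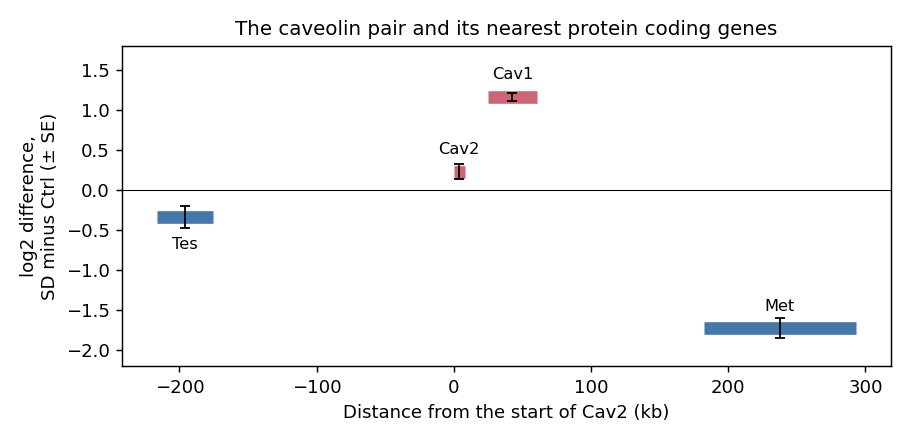
Fitted log2 difference, SD minus Ctrl, with its standard error, for Tes, Cav2, Cav1 and Met, each drawn as a bar over its gene body against the distance in kb from the start of Cav2. Cav2 (0.23) and Cav1 (1.16, as deposited) lie above 0, while Tes (-0.33) and Met (-1.72) lie below.

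Among the other water channels none of those tested was called lower. Of 5 tested aquaporin genes Aqp5 fell, Aqp4 rose from 0.864 ± 0.683 to 2.09 ± 0.712 CPM (limma adjusted p = 0.046) and Aqp1, Aqp3 and Aqp11 did not pass. Those 4 were all under 10 CPM on average in both groups, and the Aqp4 call was lost in 9 of 16 alternatives. Its Ctrl mean rests on a few reads per library, since 3 reads equal 0.404 to 0.461 CPM.

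Transcription factors and Hippo pathway genes that act in type 1 cells were called at shares no higher than those of all tested genes. The factors YAP and TAZ, with their TEAD partners, drive type 1 cell differentiation in the mouse lung, and the LATS kinases restrain them. Of 15 tested genes 3 rose, 4 fell and 8 did not pass, with a median log2 difference of -0.10, against 28.1% higher and 28.5% lower among all genes, so the counts are no result about these regulators. Tead1 rose from 61.8 ± 2.69 to 142 ± 2.46 CPM (limma adjusted p = 7.3e-17) and Lats2 from 43.5 ± 2.27 to 84.8 ± 5.14 CPM. Foxa2, a factor of lung epithelium, fell from 133 ± 10.6 to 83.5 ± 3.51 CPM, and Ctnnb1, beta-catenin, fell from 2835 ± 25.1 to 2516 ± 52.0 CPM. Tead2 also rose, and Wwtr1, which encodes TAZ, and Gata6 fell. The 8 genes that did not pass included Yap1 and Hdac2, a deacetylase that HOPX recruits in the mouse heart.

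Genes whose profiles over the 6 libraries came closest to each member were sought among all tested genes, as the root mean square difference between log2(CPM + 1) values, each gene centred on its own mean. Closest to Aqp5 were Slc12a2, the NKCC1 chloride cotransporter (0.03), Prnp (0.05) and Abhd5 (0.06). Slc12a2 went from 218 ± 9.62 to 84.9 ± 5.63 CPM. Closest to Hopx were Vamp2, a vesicle fusion protein (0.02), Jag1, a Notch ligand (0.02), and Tubb4b, a beta-tubulin (0.04). Vamp2 went from 133 ± 0.921 to 243 ± 8.53 CPM and Jag1 from 101 ± 1.74 to 186 ± 4.18 CPM. Closest to Cav1 as deposited were Fgfr3 (0.03), a growth factor receptor gene that is also among the 60 entries ahead of Aaas, Tead1 (0.04) and Hspa2 (0.04). Strbp (0.02), Reps1 (0.03) and Tnrc6a (0.03) came closest to Cav2. This measure includes the difference between the groups, and small values were not rare. Within 0.1 of the member lay 34 genes for Aqp5, 154 for Hopx, 85 for Cav1 and 432 for Cav2.

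Markers of other cell types moved in the same comparison, in which 28.1% of all tested genes were higher and 28.5% lower in SD. Type 2 alveolar markers fell in 8 of 8 tested cases (17 listed), with a median log2 difference of -2.43 and a summed level of 5156 to 5675 CPM in Ctrl and 1385 to 1468 CPM in SD. Sftpc, surfactant protein C, went from 4033 ± 266 to 1180 ± 37.6 CPM and Sftpb, surfactant protein B, from 536 ± 35.5 to 88.5 ± 1.77 CPM. Of the 12 tested genes of the intermediate state between type 2 and type 1 cells, 8 fell, 3 rose and 1 did not pass (17 listed, median -0.84). Krt8, a keratin that marks this state, fell from 194 ± 11.5 to 111 ± 8.13 CPM and Lgals3, galectin 3, from 154 ± 5.12 to 83.7 ± 7.18 CPM, whereas Sfn rose from 86.3 ± 2.61 to 141 ± 5.64 CPM and Nupr1, a stress-induced gene, from 206 ± 25.9 to 506 ± 9.77 CPM. The summed level of that list, whose largest member is S100a6, was 2004 to 2159 CPM in Ctrl and 2382 to 2447 CPM in SD. Without S100a6 the sum was 817 to 879 CPM in Ctrl and 948 to 990 CPM in SD, with Nupr1 still in it. Since 8 of the 12 tested genes fell, the sums are not read as a rise of the list. The part of these lists in the Aqp5 and Hopx differences was not tested.

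Among cell types that also express caveolins, endothelial and smooth muscle markers were mostly higher, whereas fibroblast and mesothelial markers went both ways. Beside them, 28.1% of all tested genes were higher and 28.5% lower in SD. Of 15 tested endothelial markers 13 rose, 1 fell and 1 did not pass (20 listed, median 0.84), and their sum was 1286 to 1340 CPM in Ctrl and 3656 to 3792 CPM in SD. Ramp2, part of the adrenomedullin receptor, went from 232 ± 6.35 to 1133 ± 23.5 CPM and Eng, endoglin, from 109 ± 8.46 to 479 ± 19.4 CPM. Tek, also in this list, is among the 60 entries ahead of Aaas. Of 14 tested smooth muscle and pericyte markers 11 rose, 1 fell and 2 did not pass (16 listed, median 1.22), and they summed to 701 to 739 CPM in Ctrl and 1498 to 1522 CPM in SD, with Tagln, a contractile protein, going from 136 ± 7.22 to 375 ± 9.85 CPM. Fibroblast and mesothelial markers were split, 3 higher and 5 lower of 10 with 2 not passing (16 listed, median -0.29). They summed to 3761 to 3916 CPM in Ctrl and 5930 to 6144 CPM in SD, but that rise came from Gsn, gelsolin, an actin-severing protein of many cell types, which went from 1725 ± 62.2 to 4263 ± 86.4 CPM. Without Gsn the sum was lower in SD, at 2098 to 2149 CPM in Ctrl and 1751 to 1793 CPM in SD. Pdgfra, a growth factor receptor of lung mesenchyme, and Tcf21, a transcription factor of the same tissue, went from 56.7 ± 2.005 to 201 ± 5.10 CPM and from 43.2 ± 2.07 to 152 ± 2.33 CPM, while Col3a1, a fibrillar collagen, went from 755 ± 43.3 to 510 ± 10.8 CPM. The table lists no gene at 0 in any library, so it cannot show a marker as absent. The part of these cells in the Cav1 and Cav2 differences was not tested.

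Airway epithelial markers rose in all tested cases, whereas 28.1% of all tested genes were higher in SD. Aqp5 and other aquaporins are also made in airways. Of ciliated markers 8 of 8 rose (14 listed, median 1.71, sum 352 to 370 CPM in Ctrl and 1361 to 1389 CPM in SD), with Foxj1, the master regulator of motile cilia, going from 61.0 ± 3.24 to 218 ± 13.9 CPM. Of club and secretory markers 4 of 4 rose (13 listed, median 1.83, sum 399 to 429 CPM in Ctrl and 1291 to 1350 CPM in SD), with Aldh1a1, a retinaldehyde dehydrogenase, going from 390 ± 16.6 to 1192 ± 31.3 CPM. Most of each sum came from its largest member. Without Aldh1a1 the club and secretory sum was 26.8 to 27.9 CPM in Ctrl and 123 to 143 CPM in SD. Without Tppp3 the ciliated sum was 95.1 to 102 CPM in Ctrl and 357 to 382 CPM in SD. The defining secretory genes Scgb1a1, Scgb3a2 and Cyp2f2 were not analysed here. Aqp5 fell in libraries in which these airway markers rose and type 2 markers fell, and Hopx rose in the same libraries. The part of airway cells in the Aqp5 and Hopx differences was not tested.

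**Figure D5:**
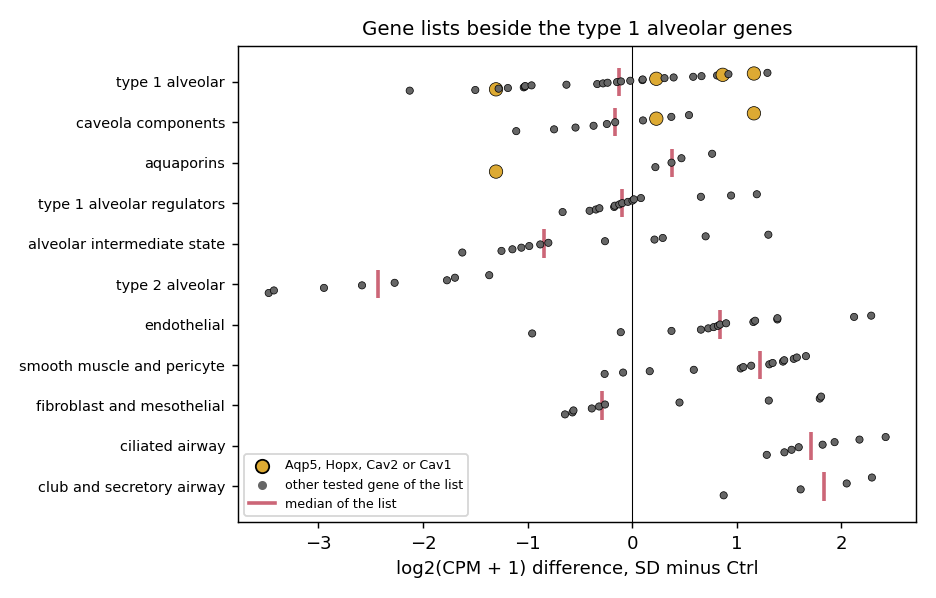
Fitted log2(CPM + 1) difference, SD minus Ctrl, of every tested gene of each list (points), with the list median (vertical line) and the 4 members as larger points. Type 2 alveolar genes lie below 0 and airway genes above 0, while type 1 alveolar genes, at a median of -0.13, lie on both sides.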

How the data were processed

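RNA of 6 mouse lung tumour samples was sequenced, 3 per group. Both groups were treated as 1 genotype, whose allele is not reported here. Per the submitters' processing notes the tools were HISAT2 2.0.5 and featureCounts 1.5.0-p3, with mm10 as the build. Their order, settings, annotation and gene filter are not given in the sources used here. From these the authors deposited 1 table of CPM (counts per library scaled to a common size), 1 column per library, per the file headers. Gene IDs were named from GENCODE M21 of the same build (10190 of 10191 matched), and promoter windows came from RefSeq GRCm38.p6. CPM values were whole multiples of 1 read for 99.8% of 61146 values (tolerance 0.01 read), which gave library totals and reads.

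Because the values are CPM, the main test was limma 3.58.1 with trend on log2(CPM + 1), group as sole term, on the 10004 genes that reached 1 CPM in 3 or more libraries, with Benjamini-Hochberg adjustment over all of them and a threshold of 0.05. Folds are ratios of mean CPM; fitted differences understate the change of low genes. edgeR 4.0.16 (quasi-likelihood, 5612 of 9701 genes called) and DESeq2 1.42.0 were run on the recovered reads, rounded, as alternatives, beside other pseudocounts, filters and scalings, a replicate term and each library left out. Ratios of members were tested by exact permutation with SciPy 1.17.1. Counting-error floors are 3 reads.

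The members and gene lists were chosen with earlier results of these data known. Named genes are the members; in each list up to 4 genes with the smallest p; genes of the type 1 and caveola lists; the 3 closest profiles; and nearest neighbours. Others, among them Tead2, Wwtr1, Gata6, Yap1, Hdac2 and S100a6, were picked once values had been seen. The labels call the libraries biological replicates and say nothing of animals, so p-values cover the spread among these samples, which may be technical.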

Additional observations from a re-analysis of the deposited data

How the results depend on the processing

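Aqp5 was lower and Hopx higher, past the threshold, in all 16 alternative fits, with log2 differences of -1.37 to -1.25 and 0.79 to 0.89. Cav1 as deposited was higher in all 15 fits that include it (1.07 to 1.20), and the fit without the 60 entries ahead of Aaas leaves it out. Cav2 kept its direction in all 16 fits and lost its call in 5: with DESeq2 (0.24), and in 4 of the 6 runs without 1 library. All 6 of those runs together gave 0.17 to 0.28. The cause of the lost calls was not tested. The count of changed genes, 5667, ran from 5057 to 5712, and that of called genes in the type 1 alveolar list, 23, from 21 to 23. Leaving out libraries moved no member ratio by more than the spread between replicates. Libraries of equal number did not deviate together (correlations of -0.007, -0.019 and 0.012). In the fit with the replicate block, 5603 genes passed, the type 1 list kept counts of 10 higher and 13 lower, and all 4 members passed, Cav2 at an adjusted p of 0.043. Of the other list counts, those of rising aquaporins (1, to 0 in 9 fits) and rising ciliated genes (8, to 5 with at least 5 CPM in 3 libraries, where fewer genes are tested) moved by over 1.5 times. At 6511192 to 7417095 reads, genes near 1 CPM rest on few reads.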
